A study of Mus musculus with 9 samples.

Results

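Alpha granules are the storage compartment from which platelets release adhesive proteins, clotting factors and chemokines, and 10 genes that encode such cargo or were grouped with it are described here: Vwf, Pf4, Ppbp, Sparc, Ecm1, Ctla2a, Thbs1, Clu, Selp and F5. They were taken by name, with every probe set that the platform annotation pairs with exactly 1 of these symbols. That gave 17 probe sets of 10 genes, out of 20380 probe sets of 12393 genes. RNA had been measured on 9 Affymetrix MOE430A arrays of primary mouse megakaryocytes, the cells that shed platelets, at 4 stages named MKP (2 arrays), MK3 (2), MK4 (2) and MK6 (3). Bone marrow or fetal liver cells were grown with thrombopoietin, the main growth factor of the lineage, and were sorted for high surface CD41 (the integrin chain encoded by Itga2b) and by forward scatter, which follows cell size. Sorts at culture days 3, 4 and 6 are described, and these match the names MK3, MK4 and MK6, while no day is attached to MKP. The labels give no strain, age, genotype or further agent. They assign no array to marrow or to fetal liver. They also do not tell whether arrays that share a stage were grown separately, and a p-value here reflects only how far these arrays spread, which may be technical. The MK6 arrays are numbered here in the order listed, so that replicates 2 and 3 are those titled replicate1 and replicate2.

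Megakaryocytes make most of this cargo themselves, pack it into granules and pass the granules along proplatelets into forming platelets. On activation, von Willebrand factor and thrombospondin bridge platelets to each other and to the vessel wall, factor V feeds thrombin formation, P-selectin moves to the surface and holds leukocytes, and the CXC chemokines encoded by Pf4 and Ppbp act on leukocytes. Pf4 is widely used as a marker of the lineage. Several of these genes are also active elsewhere, Vwf, Selp, Thbs1 and Sparc in endothelium, Sparc, Ecm1 and Clu in stroma, and F5 and Clu in liver. Pf4 and Thbs1 are also macrophage genes, and Ctla2a is also a gene of mast cells and T cells.

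Some of the 10 genes lie side by side. In the RefSeq annotation of assembly GRCm38.p6, Ppbp and Pf4 are direct neighbours within the CXC chemokine cluster, between Cxcl5 and Cxcl3. Selp and F5 are direct neighbours too. Ctla2a and its near copy Ctla2b lie on either side of Tpbpb. RefSeq promoter sequences were matched by symbol for 7 of the 10 genes. The 3 not matched were Vwf, Thbs1 and Clu. The 250 bases before a RefSeq transcript start are printed for the neighbouring chemokine genes and the Ctla2 pair, which are compared with each other below, and for Ecm1 and Selp, which share a motif with Ppbp and Ctla2a. The start is that of the transcript the table uses, and for Ecm1 and Ctla2b it lies inside the full annotated extent of the gene. For Ctla2a the listed window with the most bases identical to that of Ctla2b was taken, and for the other genes the first listed. Capitals mark 4 motifs searched on both strands: GATAA (the core that GATA factors bind), GGAAG (an ETS factor core), TGANTCA (the core common to NF-E2 and AP-1 sites) and TATAAA (a core promoter element). Each sequence runs 5′ to 3′ on the strand of its gene, from the GRCm38.p6 windows chr5:90768268-90768517 (plus strand) for Ppbp, chr5:90772185-90772434 (plus strand) for Pf4, chr13:60936626-60936875 (minus strand) for Ctla2a, chr13:60897448-60897697 (minus strand) for Ctla2b, chr3:95739570-95739819 (minus strand) for Ecm1 and chr1:164115014-164115263 (plus strand) for Selp.
Ppbp: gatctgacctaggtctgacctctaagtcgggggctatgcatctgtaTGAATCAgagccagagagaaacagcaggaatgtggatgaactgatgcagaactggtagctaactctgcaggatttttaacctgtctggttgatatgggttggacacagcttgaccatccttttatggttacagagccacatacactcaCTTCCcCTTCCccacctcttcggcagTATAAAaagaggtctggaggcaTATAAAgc
Pf4: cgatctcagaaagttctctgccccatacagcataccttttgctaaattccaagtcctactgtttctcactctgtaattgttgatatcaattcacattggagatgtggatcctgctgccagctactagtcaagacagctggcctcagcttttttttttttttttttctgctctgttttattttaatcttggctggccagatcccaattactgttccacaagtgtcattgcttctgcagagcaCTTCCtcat
Ctla2a: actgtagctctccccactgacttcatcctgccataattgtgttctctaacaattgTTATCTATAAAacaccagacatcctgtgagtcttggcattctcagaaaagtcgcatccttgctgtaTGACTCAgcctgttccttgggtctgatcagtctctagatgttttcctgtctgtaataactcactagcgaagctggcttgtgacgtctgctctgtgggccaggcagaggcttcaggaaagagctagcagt
Ctla2b: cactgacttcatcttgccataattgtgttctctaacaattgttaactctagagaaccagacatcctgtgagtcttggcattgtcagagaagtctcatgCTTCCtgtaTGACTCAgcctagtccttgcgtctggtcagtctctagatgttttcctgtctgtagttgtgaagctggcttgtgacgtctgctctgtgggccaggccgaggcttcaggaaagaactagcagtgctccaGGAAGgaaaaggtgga
Ecm1: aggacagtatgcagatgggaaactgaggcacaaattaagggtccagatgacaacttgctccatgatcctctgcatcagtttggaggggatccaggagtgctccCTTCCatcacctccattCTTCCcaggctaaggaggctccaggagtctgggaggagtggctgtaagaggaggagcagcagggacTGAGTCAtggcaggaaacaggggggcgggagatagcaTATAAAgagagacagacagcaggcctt
Selp: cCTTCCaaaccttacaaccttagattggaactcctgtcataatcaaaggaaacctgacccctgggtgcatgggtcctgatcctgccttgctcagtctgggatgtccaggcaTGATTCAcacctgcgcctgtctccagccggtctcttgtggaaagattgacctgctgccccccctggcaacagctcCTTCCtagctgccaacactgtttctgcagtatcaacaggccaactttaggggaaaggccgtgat

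TGANTCA stood in the windows of Ppbp, Ecm1, Ctla2a and Selp, 4 of the 7 genes matched, and in 6.75% of all 32851 promoter windows of this length in the table. The match was TGAGTCA in Ecm1, TGACTCA in Ctla2a, TGAATCA in Ppbp and TGATTCA in Selp. Those of Ppbp and Selp are not the NF-E2 and AP-1 core, and the share of windows with that core alone was not counted. TATAAA stood in 3 of the 7, those of Ppbp, Ecm1 and Ctla2a, and in 12.4% of all windows. GGAAG stood in 5 of the 7, those of Pf4, Ppbp, Ecm1, Selp and F5, and in 64.1% of all windows. GATAA stood in that of Ctla2a alone, directly beside a TATAAA and without overlapping it, and in 22.6% of all windows. In Pf4 the upstream window held GGAAG alone, 9 to 5 bases before the start on the minus strand. The windows of Ctla2a and Ctla2b were identical at 209 of 228 aligned bases (91.7%), and TGANTCA was in both. The Ctla2a window had been picked for this likeness, so 209 is the highest count among the windows listed for that gene. The Ctla2a motifs given here are those of the picked window. A match describes letters and not a bound site.

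Values below are scaled signals, the deposited signals brought to a common trimmed mean of 161 on every array. Differences are of mean log2(signal + 15.2), and "passed" means an adjusted p below 0.05 in limma with Benjamini-Hochberg adjustment over 9397 genes. All 17 probe sets passed the filter on dim signals (above 46.7 on at least 2 arrays), and 15 of them were above it on all 9 arrays. The exceptions were 1416589_at of Sparc and 1449906_at of Selp. For a gene with several probe sets the brightest by mean log2 signal stood for the gene. For Sparc this was 1448392_at, although 1416589_at was the brighter on all 3 MK6 arrays.

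The arrays were not alike in quality or in the cells they reflect. The 3′ to 5′ signal ratio of beta-actin, which rises as RNA degrades, lay between 0.957 and 1.09 for the 6 arrays of the first 3 stages. For MK6 replicates 1, 2 and 3 it was 1.49, 1.33 and 3.21. The same ratio of Gapdh lay between 0.805 and 0.970 for those 6 arrays and was 0.996, 1.13 and 3.27 on MK6 replicates 1, 2 and 3. The summed signal of 7 megakaryocyte markers was 3388 on MK3 replicate 1 and 11769 on MK3 replicate 2, with 3126 to 3678 on MKP, 7866 and 10712 on MK4 and 5284 to 8056 on MK6. Macrophage markers (12 genes) summed to 10445 to 12909 on MKP, 31960 and 17573 on MK3, 14024 and 20406 on MK4, and 29878, 13184 and 14820 on MK6. Hepatocyte markers (10 genes) summed to 3724 and 4672 on MK3 and to 194 to 1304 on the other 7 arrays, and neutrophil markers (10 genes) to 37613 and 45637 on MKP and 6457 to 27579 on MK6. Of 12 endothelial markers, 3 (Cdh5, Plvap and Cldn5) were under the filter level on all 9 arrays and 5 were above it on all 9 (Kdr, Pecam1, Eng, Egfl7 and Esam), the last from 173 to 653, and the list summed to 1172 to 1850. Of 12 stromal markers, 2 (Postn and Pdgfrb) were under it on all arrays and 3 (Col1a2, Col5a1 and Fn1) above it on all, and Col1a2 rose from MKP to MK6 by 1.02 (adjusted p = 0.0324, limma). Of 7 T cell markers, 4 (Cd3e, Cd3g, Cd2 and Cd4) were under it on all arrays and none above it on all. Mast cell markers (10 genes) summed to 1315 and 1079 on MKP, 1932 and 1241 on MK3, and 576, 660 and 796 on MK6. The part of these cells in the results below was not tested. In bulk RNA, fewer cells of a type and less RNA per cell cannot be told apart.

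**Figure D1:**
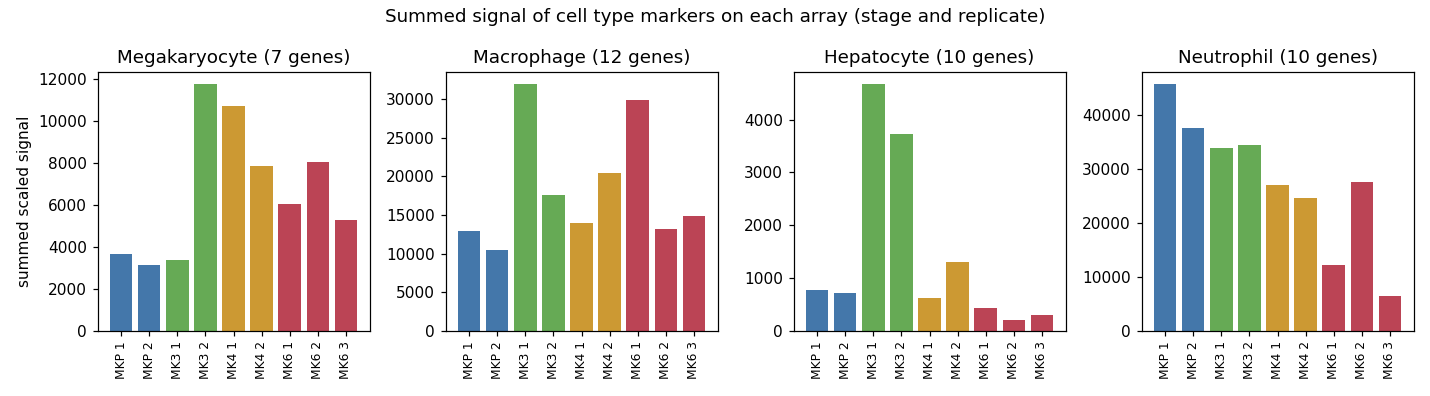
Summed scaled signal (y axis, linear from 0) of the megakaryocyte, macrophage, hepatocyte and neutrophil marker genes on each of the 9 arrays (x axis, stage and replicate; 1 bar per array). The megakaryocyte sum is 3388 on MK3 replicate 1 and 11769 on MK3 replicate 2, while the macrophage sum is higher on replicate 1, at 31960 against 17573.

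Comparing MK6 with MKP asks how the cargo differs between the last and the first stage. Of the 10 genes, 4 rose and none fell: Ctla2a, Ecm1, Vwf and Sparc, by 2.58, 2.04, 1.90 and 1.82 on the log2 scale. Over all 9397 genes, 5.69% passed in this comparison, 2.76% as higher and 2.94% as lower. The median difference of the 10 was 1.12, and that of all genes 0.13. Every MK6 array was above both MKP arrays for 8 of the 10 genes (24.5% of all genes) and below both for 1, Ppbp (18.8%). Without MKP replicate 1 or MKP replicate 2, none of the 10 passed, when 0.0319% and 0.223% of all genes did, and without MK6 replicate 3, 2 passed (1.56% of all genes). None passed when the deposited values were left unscaled (2.13% of all genes) or when the beta-actin ratio entered the fit as a covariate, which left no gene of the 9397. With a common median 2 passed (4.13% of all genes), and without MK6 replicate 1, 6 passed (6.10%). With array weights 8 passed, 7 as higher and Ppbp as lower (-0.95, adjusted p = 0.0180), and so did 27.5% of all genes.

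**Figure D2:**
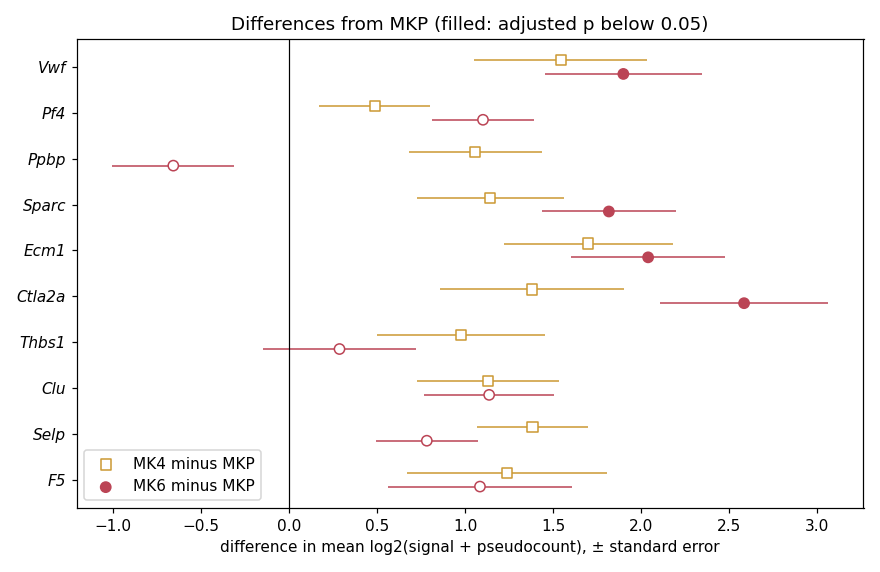
Difference in mean log2(signal + 15.2) from MKP (x axis, ± standard error) of each of the 10 genes (y axis) at MK4 (squares) and MK6 (circles); filled symbols have an adjusted p below 0.05. The filled symbols are the MK6 differences of Vwf, Sparc, Ecm1 and Ctla2a, and Ppbp is the gene with differences on opposite sides of 0, at 1.06 for MK4 and -0.66 for MK6.

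Among the adhesive proteins, Vwf (probe set 1435386_at) encodes von Willebrand factor, the multimer that tethers platelets through glycoprotein Ib. Its scaled signal was 472 and 461 on MKP, 379 and 1538 on MK3, 1505 and 1276 on MK4, and 1656, 2167 and 1565 on MK6 replicates 1, 2 and 3. The MK4 and MK6 arrays were all above the MKP arrays, and the MK3 arrays lay apart, replicate 1 with MKP and replicate 2 with MK4. The mean on MK6 was 3.85 times that on MKP, and the log2 difference was 1.90 ± 0.45 (SE, n = 3 and 2), with an adjusted p of 0.0345 from limma. This was the least stable of the 4 calls: of 25 alternatives 12 kept the direction without passing, at 1.54 to 2.18 over all 25, against 5 for Sparc, 5 for Ecm1 and 6 for Ctla2a. At MK4 the difference from MKP was 1.54 ± 0.49 (adjusted p = 0.554), and the MK6 minus MK4 difference was 0.36 (adjusted p = 0.795). The mean scaled signal thus stood in the order MK6, MK4, MK3, MKP, and the ranges of MK4 and MK3 and of MK3 and MKP overlapped. With values as deposited the MK6 minus MK4 difference was -0.31.

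Over the 9 arrays the genes most like Vwf among 9396 others were Itga2b (Pearson r = 0.983), Pls1 (0.982), Fhl1 (0.979) and AI504432 (0.975). In all, 71 genes had an r above 0.9, and all these values come from the same 9 arrays. Itga2b, the CD41 gene used in the sort, was at 1301 and 979 on MKP, 977 and 2749 on MK3, 3422 and 2531 on MK4 and 3394, 3678 and 2856 on MK6. Its MK3 arrays were split in the same way as those of Vwf.

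Thbs1 encodes thrombospondin-1, which binds CD36 and CD47. Its brighter probe set, 1460302_at, gave 1702 and 1987 on MKP, 1316 and 3317 on MK3, 3880 and 3399 on MK4, and 2473, 3438 and 1325 on MK6. Both MK4 arrays were above all MKP and MK3 arrays, and the MK6 arrays reached from below MKP to the level of MK4. No difference of Thbs1 passed: 0.98 ± 0.48 for MK4 minus MKP (adjusted p = 0.789), 0.79 for MK4 minus MK3 (0.999) and 0.28 ± 0.44 for MK6 minus MKP (0.709). Without MK3 replicate 1 or MK3 replicate 2 the MK4 minus MK3 value was 0.13 or 1.45. The MK6 minus MKP value turned to -0.37 with the other probe set, 1450377_at, and to -0.045 with the mean of both.

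The 2 Thbs1 probe sets parted at MK6. Signal of 1450377_at was 0.718 to 0.958 times that of 1460302_at on the 6 other arrays and 0.537, 0.650 and 0.385 times on MK6 replicates 1, 2 and 3. The lowest ratio was on the array with the highest beta-actin ratio, MK6 replicate 3. The part of RNA quality in this was not tested.

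Sparc encodes osteonectin, a collagen-binding matrix protein stored in platelets. Probe set 1448392_at gave 104 and 95.6 on MKP, 186 and 229 on MK3, 165 and 343 on MK4, and 332, 658 and 268 on MK6. The MKP arrays were below all the others, and the range of MK4 overlapped those of MK3 and MK6. The MK6 mean was 4.20 times the MKP mean, a log2 difference of 1.82 ± 0.38 (adjusted p = 0.0225, limma), and at MK4 it was 1.14 ± 0.42 (adjusted p = 0.612), or 0.65 without MK4 replicate 2. Probe set 1416589_at gave 108 and 19.5 on MKP, 196 and 249 on MK3, 42.7 and 332 on MK4, and 437, 936 and 570 on MK6, and in the fit over probe sets its MK6 minus MKP difference was 3.27 ± 0.69 (adjusted p = 0.0216). Both probe sets thus rose. Sparc was also the member that passed when MK6 replicates 1 and 3 were left out together (2.55, adjusted p = 0.0467), a choice made after the data had been seen.

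Ecm1 encodes extracellular matrix protein 1, a secreted glycoprotein. Probe set 1448613_at was at 150 and 185 on MKP, 556 and 468 on MK3, 352 and 930 on MK4, and 1252, 673 and 460 on MK6. The MKP arrays were below all 7 others, which overlapped between stages. Its MK6 mean was 4.76 times the MKP mean, a log2 difference of 2.04 ± 0.44 (adjusted p = 0.0242, limma). The difference was already 1.53 ± 0.48 at MK3 (adjusted p = 0.254) and 1.70 ± 0.48 at MK4 (0.469), neither of which passed. The MK4 value was 1.02 without MK4 replicate 2 and 2.38 without MK4 replicate 1.

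Ecm1 was the member whose MK3 arrays did not follow the megakaryocyte markers, being higher on replicate 1, where those markers were low. Within MK3, MK4 and MK6 alike, the array with the highest Ecm1 signal was also the array with the highest macrophage sum: MK3 replicate 1, MK4 replicate 2 and MK6 replicate 1. Within MKP the order was the opposite, with sums of 12909 and 10445 on replicates 1 and 2. On MK6 replicate 1 the macrophage sum rested on Lyz2, Ctss, Cd14 and Cd68, while C1qa was at 17.9. The sum of the 12 stromal markers was highest on the same arrays of MK3, MK4 and MK6, at 1113, 1360 and 1938. The part of macrophages or of stromal cells in the Ecm1 signal was not tested.

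Clu encodes clusterin, a secreted chaperone also found in liver. Probe set 1454849_x_at, the brightest of 4, was at 730 and 580 on MKP, 1144 and 2238 on MK3, 1664 and 1247 on MK4, and 1231, 2274 and 1084 on MK6. Every later array was above both MKP arrays, with little order among the later stages. The difference from MKP was 1.28 ± 0.40 at MK3 (adjusted p = 0.256), 1.13 ± 0.40 at MK4 (0.593) and 1.13 ± 0.37 at MK6 (0.0983), and none passed. The 3 other probe sets ran at 0.290 to 0.788 times the brightest, with Pearson r from 0.939 to 0.969 to it over the 9 arrays.

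In scaled signal the 2 chemokines went apart late. Pf4 encodes platelet factor 4 (CXCL4), which binds heparin. Its probe set 1448995_at was among the brightest of every array, between the 99.4th and the 99.9th percentile, with 4314 and 4183 on MKP, 4356 and 5604 on MK3, 6493 and 5453 on MK4, and 11328, 7265 and 9223 on MK6. After scaling, all 3 MK6 arrays were above all others, and the MKP arrays below all others. The deposited signals of Pf4 overlapped, with 7206, 8296 and 5851 on MK6 and 8072 and 6613 on MK4. The MK6 mean was 2.18 times the MKP mean, with a log2 difference of 1.10 ± 0.29. Its adjusted p was 0.0508 over genes and 0.0471 in the fit over 14516 probe sets, on either side of the threshold. MK4 minus MKP was 0.48 ± 0.32 (adjusted p = 0.916) and MK6 minus MK4 was 0.62 ± 0.29 (0.497). With quantile normalization the MK6 minus MK4 difference was 0.13 (adjusted p = 0.843, limma), and with values as deposited it was -0.052.

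The probe sets most like that of Pf4 over the 9 arrays were those of Glce (Pearson r = 0.988), Ppm1b (0.982), Fbxl12 (0.964) and Prune1 (0.963), and 113 genes had an r above 0.9. Among the other members, Ctla2a had the highest r with Pf4, 0.930.

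Ppbp encodes pro-platelet basic protein, the precursor of the neutrophil attractant CXCL7. On MKP, probe set 1418480_at gave 1723 and 1878, on MK3 2030 and 3961, on MK4 3819 and 3697, and on MK6 1098, 1640 and 807. The 3 MK6 arrays were below all 6 others, and both MK4 arrays were above both MKP arrays. The mean on MK4 was 2.09 times that on MKP (log2 difference 1.06 ± 0.38, adjusted p = 0.593), and the mean on MK6 was 0.314 times that on MK4 (-1.72 ± 0.35, unadjusted p = 4.3e-04, adjusted p = 0.116). MK6 minus MKP was -0.66 ± 0.35 (adjusted p = 0.264). None of these passed, although without MK6 replicate 2 the MK6 minus MK4 difference was -1.98 with an adjusted p of 0.0267.

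On MK6, then, Pf4 had its highest and Ppbp its lowest scaled signals of the series. Over the 9 arrays their Pearson r was -0.51. The beta-actin ratio was also highest on the MK6 arrays. With that ratio as a covariate, the Ppbp difference was -0.11 for MK6 minus MKP (adjusted p = 0.946, limma) and -1.25 for MK6 minus MK4 (0.999), and the Pf4 difference for MK6 minus MKP was 1.02 (0.463). No gene of the 9397 passed in that fit for either comparison. The ratio was raised on MK6 alone, where it was 1.49, 1.33 and 3.21 on replicates 1, 2 and 3. The fit takes its slope from spread within stages, and so mostly from MK6 replicate 3. It therefore cannot settle how much of a stage difference goes with the ratio. The part of RNA quality in these differences was not tested.

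Selp and F5, direct neighbours in the genome, followed different courses. Selp encodes P-selectin, the membrane protein of the granule that binds PSGL-1 on leukocytes. Probe set 1420558_at was at 125 and 140 on MKP, 97.7 and 148 on MK3, 402 and 341 on MK4, and 162, 298 and 280 on MK6. The MK4 arrays were above all 7 others, and MKP and MK3 overlapped. MK4 minus MK3 was 1.51 ± 0.32 (unadjusted p = 6.0e-04, adjusted p = 0.592) and MK4 minus MKP was 1.38 ± 0.32 (unadjusted p = 0.00115, adjusted p = 0.465). MK6 minus MK4 was -0.60 ± 0.29 (adjusted p = 0.506) and MK6 minus MKP 0.78 ± 0.29 (0.133). The dimmer probe set 1449906_at gave 80.4 and 48.5 on MKP, 32.5 and 76.2 on MK3, 180 and 153 on MK4, and 54.8, 124 and 93.4 on MK6, again highest on both MK4 arrays.

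F5 encodes coagulation factor V, the cofactor of factor Xa. Probe set 1449269_at was at 224 and 214 on MKP, 265 and 945 on MK3, 563 and 512 on MK4, and 663, 708 and 234 on MK6. The MK3 arrays held the highest signal of all 9 and a signal close to MKP, and MK6 replicate 3 stood close to MKP too. MK4 minus MKP was 1.24 ± 0.57 (adjusted p = 0.767) and MK6 minus MKP was 1.08 ± 0.52 (0.232). The other probe set, 1418907_at, ran at 0.562 to 0.872 times the first, with r = 0.963. Of the 10 hepatocyte markers 8 were higher on MK3 replicate 1 than on replicate 2, and 2 were lower. F5 and Clu were higher on replicate 2. The part of liver cells in their signals was not tested.

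Ctla2a encodes a small protein related to the propeptide of cysteine proteases, which inhibits cathepsin L. It was grouped with the cargo by the choice of members, and its place in the granule was not measured. On probe set 1448471_a_at it gave 623 and 909 on MKP, 555 and 2345 on MK3, 2031 and 1932 on MK4, and 5562, 3836 and 4521 on MK6. The 3 MK6 arrays were above all 6 others, and the MK4 arrays above MKP. With a mean 6.06 times that of MKP, the MK6 difference was the largest of the 10, at 2.58 ± 0.48 (adjusted p = 0.0149, limma). MK4 minus MKP was 1.38 ± 0.52 (adjusted p = 0.639) and MK6 minus MK4 was 1.20 ± 0.48 (0.424). Ctla2a was also the member that passed the F test over the 4 stages (adjusted p = 0.0454), 1 of 10 beside 2.79% of all genes, with Selp at 0.0559 and Ppbp at 0.0603. The F test call did not hold with no filter or a stricter one, with quantile normalization, a common median, deposited values, the mean of probe sets, no intensity trend or the beta-actin covariate. It was also lost without MKP replicate 1, MKP replicate 2, MK4 replicate 2 or MK6 replicate 3.

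The near copy Ctla2b (1452352_at) was at 591 and 412 on MKP, 417 and 1726 on MK3, 1413 and 1143 on MK4, and 2022, 2081 and 2890 on MK6, and it rose by 2.19 ± 0.47 (adjusted p = 0.0242). A probe set named for both, 1416811_s_at, ran from 1697 and 1715 on MKP to 10904, 6882 and 8397 on MK6. The genes are near copies, and how far each probe set also reads the other is uncertain. Cathepsin L itself (Ctsl), the target of the inhibitor, rose by 2.65 (adjusted p = 0.00788), from 1362 and 1396 on MKP to 12863, 5913 and 8791 on MK6.

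**Figure D3:**
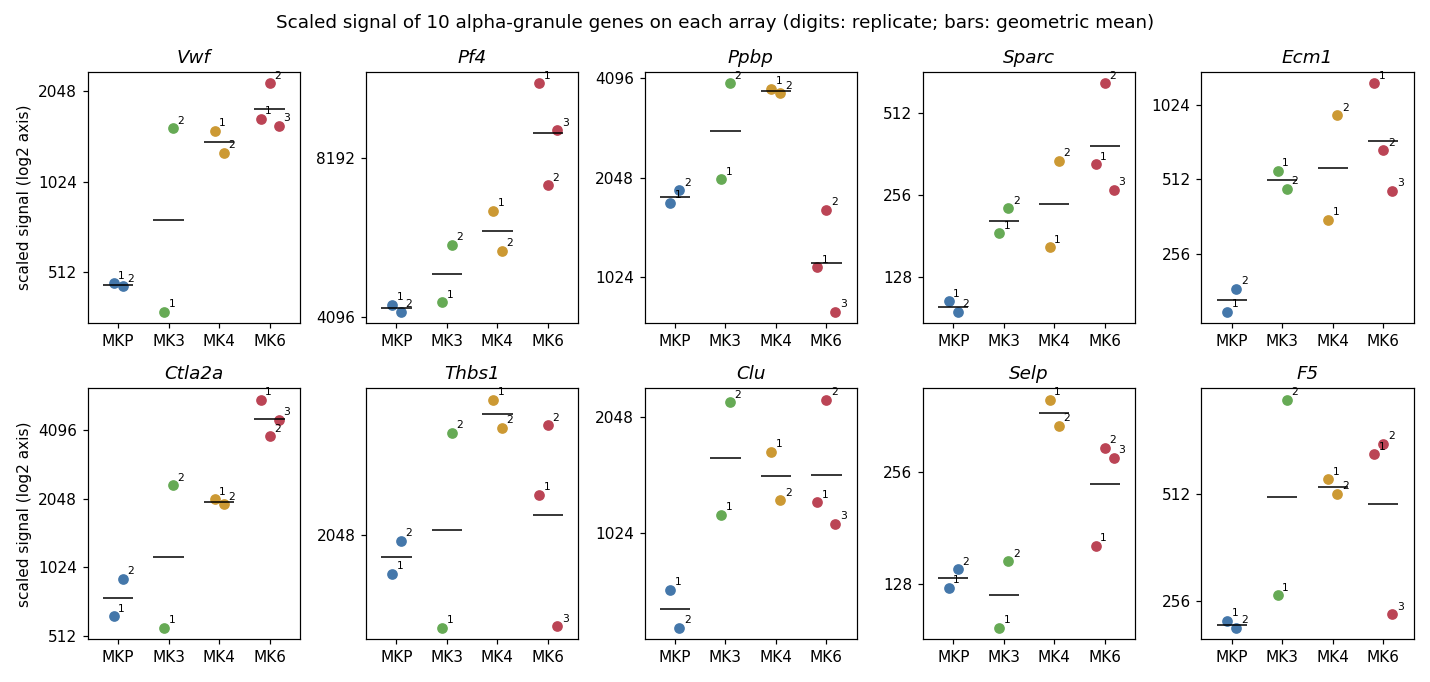
Scaled signal (y axis, log2 scale, separate for each panel) of the 10 genes on the 9 arrays, grouped by stage (x axis); each point is an array with its replicate number and bars are geometric means. Ctla2a and Pf4 have all MK6 arrays above the rest, Ppbp has all MK6 arrays below the rest, and Selp has both MK4 arrays above the rest.

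Comparing MK4 with MKP asks what differed by the middle of the culture. All 10 genes were higher on both MK4 arrays than on both MKP arrays, which held for 23.6% of all genes, and differences ran from 0.48 (Pf4) to 1.70 (Ecm1), with a median of 1.19 against 0.016 for all genes. None of the 10 passed in limma, nor did any of the 9397 genes (percent called 0). At an unadjusted p below 0.05 there were 7 of the 10 and 6.58% of all genes. This comparison shares its MKP arrays with that of MK6, so the directions in the 2 are not independent. When only the 4 arrays of these stages were fitted, 4 of the 10 passed (Vwf, Ctla2a, Selp and F5), beside 0.628% of all genes.

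MK3 minus MKP differences ran from -0.13 (Selp) to 1.53 (Ecm1), with a median of 0.68 against -0.04 for all genes. None of the 10 passed in limma, beside 0.0532% of all genes, and 3 had an unadjusted p below 0.05 (9.91% of all genes): Ecm1, Clu and Sparc, the last at 0.94 ± 0.42 (adjusted p = 0.484). Both MK3 arrays were above both MKP arrays for 6 of the 10, beside 19.4% of all genes.

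The spread within MK3 was wide for these genes. Of the 10, 9 were higher on replicate 2 than on replicate 1, and 4 by at least 2-fold: Ctla2a (4.23 times), Vwf (4.06 times), F5 (3.57 times) and Thbs1 (2.52 times). Over all genes, 43.5% were higher on replicate 2 and 3.38% by at least 2-fold. The summed megakaryocyte markers differed by 3.47 times in the same direction. The part of the makeup of the sorted cells in this spread was not tested.

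From MK3 to MK4, none of the 10 passed in limma (0.0106% of all genes did), and Selp alone had an unadjusted p below 0.05 (3.59% of all genes). Selp and Thbs1 were the 2 of 10 genes with both MK4 arrays above both MK3 arrays (17.5% of all genes), and the median difference was 0.34 against 0.049 for all genes.

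From MK4 to MK6 the members divided. In scaled signal Ctla2a, Pf4 and Vwf had all MK6 arrays above both MK4 arrays (3 of 10, and 14.8% of all genes). Ppbp and Selp had all of them below (2 of 10, and 9.82% of all genes). With values as deposited the MK6 minus MK4 difference stayed positive for Ctla2a (0.54) but was -0.052 for Pf4 and -0.31 for Vwf. None passed in limma, beside 0.0213% of all genes, and 2 had an unadjusted p below 0.05, Ppbp and Ctla2a (10.5% of all genes). The median difference was 0.17, against 0.089 over all genes.

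Among all probe sets of the 10 genes, 6 of 17 passed for MK6 minus MKP in the fit over probe sets, beside 6.91% of the 14516 tested. They were those of Vwf, Pf4, Ecm1 and Ctla2a and both of Sparc.

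**Figure D4:**
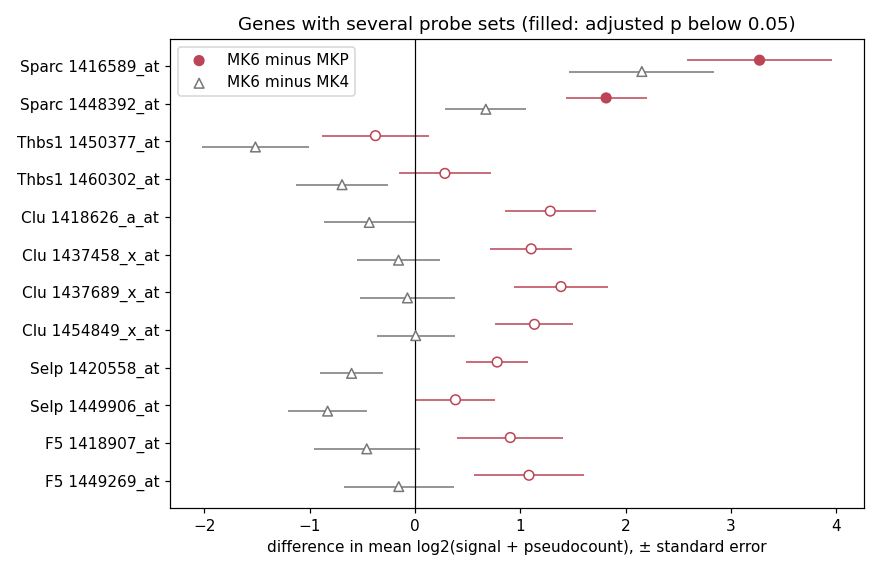
Difference in mean log2(signal + 15.2) (x axis, ± standard error) for every probe set of the 5 genes with several (y axis), for MK6 minus MKP (circles) and MK6 minus MK4 (triangles); filled symbols have an adjusted p below 0.05 in the fit over probe sets. Both Sparc circles are filled, and the Thbs1 circles lie on opposite sides of 0.

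Other genes of the granule were taken from lists. Of 33 tested genes for other cargo, 2 rose and 1 fell from MKP to MK6, with a median difference of 0.043. The angiogenic factor Vegfa rose by 1.57 (adjusted p = 0.0419, limma) and the chemokine gene Cxcl5, the neighbour of Ppbp, by 1.76 (0.0298), from 10.7 and 9.82 on MKP, under the filter level, to 62.7, 58.4 and 95.2 on MK6. Tgfb1, for a cytokine that platelets hold in bulk, fell by 1.28 (adjusted p = 0.0487), from 2491 and 2335 on MKP to 1084, 1372 and 640 on MK6. Cxcl1 had a difference of 2.73 (adjusted p = 0.0521), from 17.4 and 14.35 on MKP, also under the filter level. Fgb, a fibrinogen chain made in liver, had one of -1.82 (0.131). It went from 60.3 and 33.4 on MKP to 2.59, 1.20 and 2.07 on MK6, all but the first under that level.

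Of 22 tested genes for the granule membrane and its biogenesis, 2 rose and none fell, with a median of -0.0057: Cd36, a thrombospondin receptor that macrophages carry too, by 2.92 (adjusted p = 0.00582, limma) and Itga2b by 1.53 (0.0433). Itgb3, the partner chain of CD41, had a difference of -2.01 that did not pass (adjusted p = 0.0568). Of 21 tested receptors and partners of the cargo, 3 rose and none fell (Cd36, Ctsl and Itga2b), with a median of 0.40. The macrophage sums given above were also higher on every MK6 array than on either MKP array, but the list went both ways: 7 of its 12 genes had a positive MK6 minus MKP difference, with Cd68 (adjusted p = 0.0458) and Ctss (0.0301) passing in limma, and 5 a negative one, from -0.51 for Adgre1 to -1.69 for C1qa. The part of macrophages in the Cd36 and Ctsl results was not tested.

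Of 17 tested transcription factors known from megakaryocyte genes, 1 rose and 1 fell, with a median of 0.17. Myb, a factor of immature blood cells, fell by 3.01 (adjusted p = 0.0175, limma), from 1396 and 1515 on MKP to 50.4, 424 and 196 on MK6. Nfe2l2, a relative of NF-E2, rose by 1.01 (adjusted p = 0.0231), and Runx1 had a difference of -0.90 (0.0762). Of 5 tested neighbours of the 10 genes, Ctla2b and Cxcl5 rose, and Slc19a2, beside F5, had a difference of 1.13 (adjusted p = 0.104). In the 4 other comparisons no gene of these lists passed.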

How the data were processed

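RNA from sorted mouse megakaryocytes was measured on 9 single-colour arrays. The authors deposited 1 signal intensity per probe set and array, by MAS5 according to the labels (per the submitters' processing notes). The MAS5 version: not given in the sources used here. Deposited trimmed means ran from 102 to 221, so each array was scaled to a 2% trimmed mean of 161. Of 22690 probe sets, 20380 had 1 gene, 691 several and 1555 none, and 64 were controls. The pseudocount was 15.2 (20th percentile of all scaled values), and the filter asked for a signal above 46.7 (40th percentile) on at least 2 arrays. The brightest probe set by mean log2 signal stood for each of 9397 genes. limma 3.58.1 in R 4.3.3 fitted a mean per stage over all arrays, letting the spread follow intensity, with 5 residual degrees of freedom, with Benjamini-Hochberg adjustment and a threshold of 0.05. The fit was tested on simulated data. The number of arrays limits the precision.

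Named were the 10 genes, from each list the 3 genes that differed most, in either direction, between MK6 and MKP, for Vwf and Pf4 the 4 genes of highest Pearson r, and measured neighbours. Other genes that passed (Vegfa, Tgfb1) and marker genes were named after their values were seen. The members and lists were chosen with earlier results of these data known. Alternatives covered the pseudocount, filter, scaling, probe set choice, trend, array weights, the beta-actin ratio, the stages fitted and each array left out.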

Additional observations from a re-analysis of the deposited data

How the results depend on the processing

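For 32 reported differences of the 10 genes, 768 alternatives were computed: 709 kept direction and side of the threshold, 28 kept direction but no longer passed, 22 newly passed, and 9 changed sign, none of these past the threshold. Those were Pf4 (-0.052) and Vwf (-0.31) in MK6 minus MK4 with values as deposited, Selp in MK3 minus MKP without MK3 replicate 1 (0.14, with a range of -0.39 to 0.14 over single arrays left out), Thbs1 in MK6 minus MK4 with the beta-actin ratio as covariate (0.021), and Thbs1 in MK6 minus MKP with array weights (-0.18), the mean of probe sets (-0.045), the most variable probe set (-0.37), values as deposited (-0.076) and without MK6 replicate 2 (-0.022, with a range of -0.022 to 0.66 over single arrays left out). The cause was not tested.

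Of the 10 genes, the number that passed for MK6 minus MKP was 4, and became 0 with values as deposited, 0 with the beta-actin ratio as covariate, 2 with a common median, 8 with array weights, 1 without MK6 replicates 1 and 3 together (chosen after seeing the data), and 0 to 6 with 1 array left out. It was 0 for MK4 minus MKP, and became 2 with array weights and 4 with only the arrays of the 2 stages, which gave 1 for MK3 minus MKP in place of 0. For MK6 minus MK4 it was 0, and became 1 with array weights, 1 without MK6 replicates 2 and 3 together, and 0 to 1 with 1 array left out. For the F test it was 1, and became 0 with no filter, a stricter filter, quantile normalization, a common median, values as deposited, the mean of probe sets, no intensity trend, the beta-actin ratio as covariate, or MK6 replicates 1 and 3 left out. It became 8 with array weights, 2 without MK6 replicates 2 and 3, and 0 to 3 with 1 array left out. A lone array left in a stage is assumed to vary like the other stages. No paired analysis was possible because the labels of the MKP, MK3 and MK4 arrays carry no replicate number.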

Other observations

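Timp3, a cargo gene for a metalloproteinase inhibitor that was singled out after its values were seen, was at 129 and 120 on MKP, 157 and 936 on MK3, 1014 and 607 on MK4, and 54.2, 229 and 161 on MK6. Its MK4 arrays were above all MKP and MK6 arrays, as for Ppbp. The MK6 minus MKP difference was 0.043 (adjusted p = 0.974, limma).

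A probe set named for both Pald1 and Thbs1, 1421811_at, which the member rule leaves out, was at 616 and 914 on MKP, 524 and 1679 on MK3, 1793 and 1619 on MK4, and 1475, 2152 and 1271 on MK6. All 3 MK6 arrays were above both MKP arrays there, unlike on either probe set named for Thbs1 alone.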
